A study of Rattus norvegicus with 8 samples.

Results

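Histone lysine methylation writers and erasers are the enzymes that add methyl groups to lysines of histone tails or take them off, with the core subunits of the Polycomb complex PRC2. Members were taken by symbol: every row of the deposited expression table named Kdm, Kmt, Setd or Smyd with a number and at most 1 further letter, and 16 listed genes such as Setdb1, Ehmt2, Ezh2 and Nsd1, leaving out Kdm5c, Kdm5d and Kdm6a. All 16 listed genes were found, and the rule gave 52 of the 22228 named genes of the table. The rule used no measured value. Of the 52, 51 reached 1 TPM (a transcript's share of its library, corrected for its length) in at least 2 libraries and were tested. The exception was the muscle methyltransferase gene Smyd1, at most 0.0345 TPM in any library.

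The study followed rat pluripotent cells of the strain Crlj:WI, labelled wild type, towards primordial germ cell-like cells, with 4 groups of 2 RNA sequencing libraries. ESC are embryonic stem cells on mouse embryonic fibroblast feeders with the MEK inhibitor PD0325901 (1 µM), the GSK3 inhibitor CHIR99021 (3 µM) and rat LIF (1000 U/ml). EpiLC are epiblast-like cells, grown as aggregates for 60 hours with 1% KSR, bFGF (12 ng/ml) plus activin A (20 ng/ml). PGCLC_d3 are cells of such aggregates after 3 days with BMP4 (500 ng/ml), rat LIF (1000 U/ml), SCF (100 ng/ml) and EGF (50 ng/ml), sorted for tdTomato expressed from Nanos3. PGCLC_d3ag3 were made from PGCLC_d3, of which 5000 at a time were aggregated with 50000 gonadal somatic cells (female, E15.5, c-KIT-positive germ cells removed) in 5% KSR without the earlier cytokines, and tdTomato-positive cells were sorted after a further 3 days. Whether replicates came from separate cultures is not in the labels, and the p-values rest on the spread between these libraries only, which may be technical. A changed level in such bulk RNA cannot be told apart from a changed share of cells that express the gene, and both PGCLC groups were selected by the sort.

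Methylation of lysine 4 of histone H3 (H3K4) marks active promoters and enhancers, methylation of H3K9 and H3K27 accompanies silent chromatin, H3K36 and H3K79 methylation lies over transcribed genes, and H4K20 methylation is tied to the cell cycle and to heterochromatin. Writers are SET domain enzymes (or DOT1L for H3K79) that favour particular lysines, and most known erasers are either flavin-dependent (KDM1) or JmjC oxygenases. In mouse primordial germ cells, H3K9 dimethylation is known to fall and H3K27 trimethylation to rise as the genome is reprogrammed.

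Replicates correlated at 0.995 to 0.998 across the 13571 tested genes (Pearson, across genes, which are not independent). Among members with a group mean of at least 5 TPM, the median fold between the 2 replicates of a group was 1.02 to 1.1, and the largest was 1.57, in PGCLC_d3ag3 (Ash1l). The labels' cell types were checked against their markers. Summed TPM of 5 ESC markers was 1450.4 to 1465 in ESC and 10.3 to 195 elsewhere. That of 3 EpiLC markers was 2951 to 3180 in EpiLC and 37.5 to 157 elsewhere. For 6 primordial germ cell-like markers it was 930 to 1431 in the PGCLC groups and 32.9 to 116 elsewhere. These 6 include Nanos3, the gene used to sort both PGCLC groups, so its level there is no check of the labels. The 4 gonadal germ cell markers summed to 1089.7 to 1119 in PGCLC_d3ag3 and 5.01 to 192 elsewhere. Most of the PGCLC_d3ag3 sum was Dazl (763 and 806 TPM). Ddx4 separated the groups less, with 204 and 201 TPM in PGCLC_d3ag3, 162 and 134 in EpiLC and 51.7 and 57.6 in ESC. Of other cell types, 10 gonadal somatic markers summed to 6.26 to 6.77 in ESC, 17.8 to 18.6 in EpiLC, 8.59 to 10.0 in PGCLC_d3 and 14.1 to 19.4 in PGCLC_d3ag3. Under 1 TPM in both libraries were 5 of the 10 in PGCLC_d3ag3 and 8 in each other group. Wt1, Gata4, Lhx9 and Foxl2 had their highest mean in PGCLC_d3ag3, and the rest of the 10 in another group. The 8 fibroblast markers summed to 23.9 to 29.3 in ESC, 43.9 to 82.6 in EpiLC, 3.71 to 7.02 in PGCLC_d3, where Dcn and Lum were listed at 0, and 12.0 to 15.3 in PGCLC_d3ag3, where Lum was. What part the mouse feeders or other cells have in the members' values was not tested.

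Nearly all members moved at some step, as did nearly all genes. A moderated F test over the 4 groups called 50 of the 51 tested members, against 96.3% of all tested genes. The member not called was the H3K9 and H3K36 demethylase gene Kdm4a (adjusted p = 0.0540). The range between the highest and lowest group mean was at least 1 on the log2 scale for 27 members (52.9%, against 62.4% of all tested genes) and at least 2 for 12 (23.5%, against 24.1%). Summed over the 52 members the level was 2079 and 2189 TPM in ESC, 2128 and 2178 in EpiLC, 2327 and 2347 in PGCLC_d3, and 2069 and 2078 in PGCLC_d3ag3. TPM values are shares of each library, so these sums are shares too. PGCLC_d3 held the highest group mean for 24 of the 51 (47.1%, against 32.9% of all tested genes) and the lowest for 1 (1.96%, against 14.1%), whereas PGCLC_d3ag3 held the lowest for 22 (43.1%, against 27.4%). These sums and counts are on the deposited scale and were not repeated after the rescalings given below. On that scale the median tested gene itself changed by 0.21 (log2) from EpiLC to PGCLC_d3 and by -0.18 from PGCLC_d3 to PGCLC_d3ag3.

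**Figure D1:**
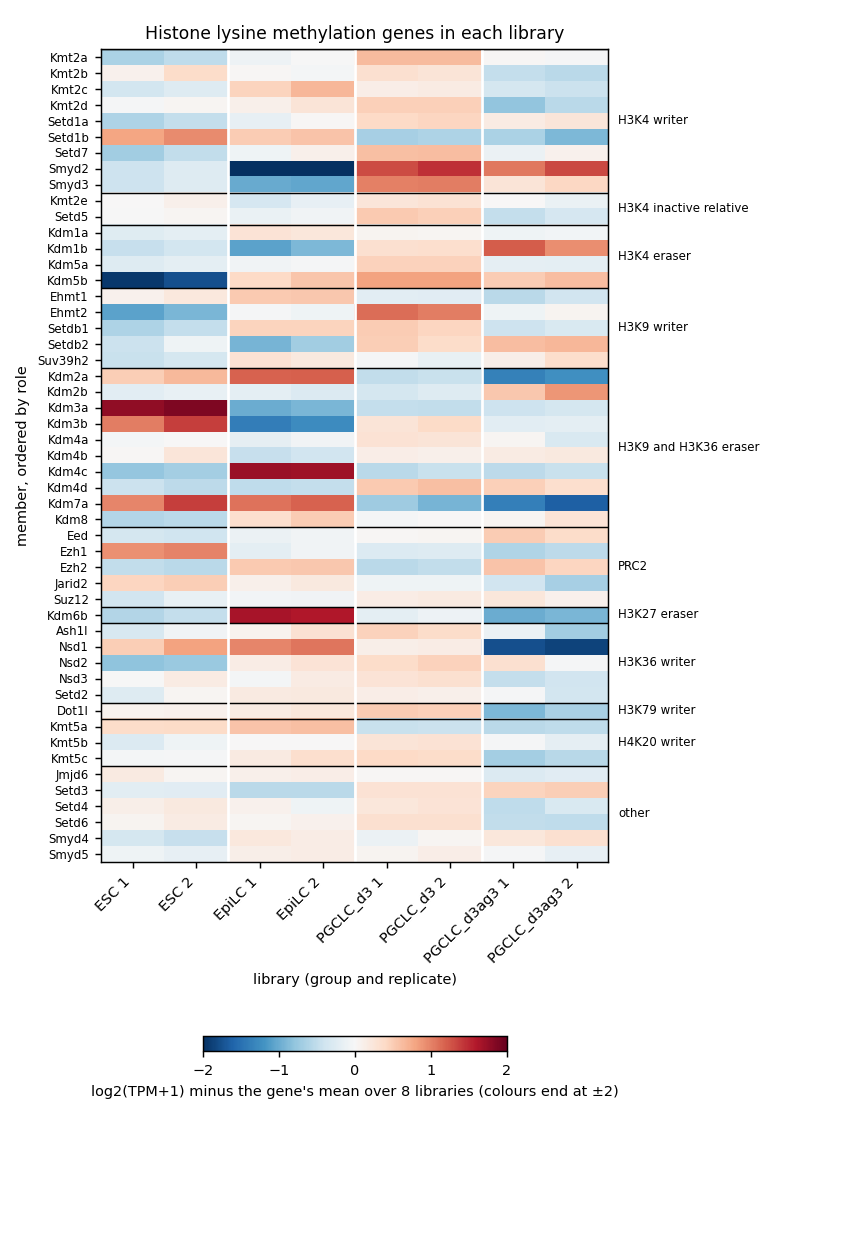
Each cell is the log2(TPM+1) of a member in a library minus that member's mean over the 8 libraries, for the 51 tested members (rows, by role) and 8 libraries (columns); red is above and blue below the mean. The EpiLC columns stand out for Kdm4c and Kdm6b (red) and Smyd2 (blue), and the ESC columns for Kdm3a (red) and Kdm5b (blue).

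Changes are differences of mean log2(TPM+1), which understate the change of low genes, folds are ratios of mean TPM, and a gene rose or fell where limma's adjusted p was under 0.05. From ESC to EpiLC, the step out of naive pluripotency, 22 members rose (43.1%, against 35.4% of all tested genes) and 11 fell (21.6%, against 31.8%). Counting only changes of 1 or more on the log2 scale, 4 rose (12.5% of all tested genes did) and 4 fell (10.8%). The large rises were the demethylase genes Kdm4c, Kdm5b and Kdm6b and the H3K27 methyltransferase gene Ezh2. The large falls were the H3K9 demethylase genes Kdm3a and Kdm3b, Smyd2 and Ezh1. The median member changed by 0.18 and the median tested gene by 0.038. All 33 calls were also made after median-of-ratios rescaling and after quantile normalization, and the share of all called genes kept under both was not counted.

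From EpiLC to PGCLC_d3, where germ cell fate is induced, 24 members rose (47.1%, against 47.3% of all tested genes) and 14 fell (27.5%, against 27.6%). Of these, 7 rose by at least 1 on the log2 scale (18.7% of all tested genes did) and 7 fell by as much (10.8%). Smyd2, Smyd3, Kdm3b and Kdm1b led the rises, and Kdm4c, Kdm7a, Kdm6b and Kdm2a led the falls. The median member changed by 0.23. The median tested gene changed by 0.21 in this comparison, which either rescaling brought to -0.016 and 0.018. Under both rescalings 13 of the 24 rises and all 14 falls were called. The share of all called genes kept under both was not counted. The median gene moved down with rescaling here, which by itself favours keeping falls over rises. The share of called members that were higher was 63.2% as deposited, 41.7% after median-of-ratios rescaling and 40.6% after quantile normalization, beside 63.2%, 49.2% and 51.1% of all called genes.

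From PGCLC_d3 to PGCLC_d3ag3, the aggregation step, 31 members fell (60.8%, against 44.8% of all tested genes) and 7 rose (13.7%, against 25.7%). Besides the gonadal somatic cells, these groups differed in culture time, cytokines, KSR and a further sort. No group had the added time without somatic cells, so which of these the changes follow was not tested. On the log2(TPM+1) scale the 5 largest falls were in writers for 5 different lysines, Nsd1 (H3K36), Dot1l (H3K79), Kmt2d (H3K4), Ehmt2 (H3K9) and Kmt5c (H4K20). By ratio of mean TPM the order differed. The eraser gene Kdm6b (mean 2.18 to 0.808 TPM) fell by more than each of these except Nsd1. The eraser gene Kdm7a (2.28 to 1.05 TPM) fell by more than Ehmt2 and Kmt5c. Both eraser genes were low. Kdm2b and Ezh2 led the rises. The median member changed by -0.32. The median tested gene changed by -0.18 here, and by -0.0041 and -0.0098 after the rescalings. Under both rescalings 20 of the 31 falls and all 7 rises were called. The share of all called genes kept under both was not counted. The median gene moved up with rescaling here, which by itself favours keeping rises over falls. Of called members 18.4% were higher as deposited, 35.3% after median-of-ratios rescaling and 34.3% after quantile normalization, beside 36.4%, 50.0% and 49.4% of all called genes.

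Compared with ESC directly, PGCLC_d3 had 30 members higher (58.8%, against 49.6% of all tested genes) and 10 lower (19.6%, against 27.4%). Differences of at least 1 numbered 9 higher (22.2% of all tested genes) and 5 lower (12.3%). This comparison shares its libraries with those above. The median member was 0.37 higher. The median tested gene was 0.25 higher (-0.0031 and 0.043 after the rescalings). Under both rescalings 14 of the 30 higher and all 10 lower calls held, and the share of all called genes that held was not counted. The median gene moved down with rescaling here, which by itself favours keeping lower calls. Called members that were higher made up 75% as deposited, 50% after median-of-ratios rescaling and 54.5% after quantile normalization. Of all called genes these shares were 64.4%, 49.8% and 53.1%, near the members' shares after either rescaling.

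**Figure D2:**
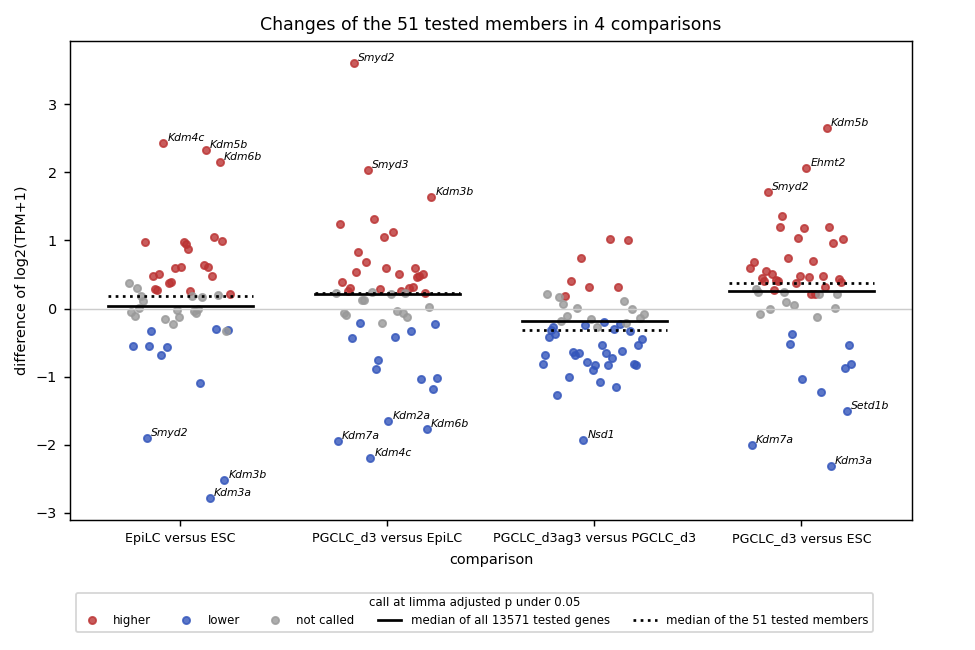
Difference of log2(TPM+1) (y axis) of each of the 51 tested members (points) in the 4 comparisons (x axis), coloured by call, with the median of all 13571 tested genes (solid line) and of the members (dotted line); members beyond 1.5 are named. Smyd2 moved most between EpiLC and PGCLC_d3 (3.61), and the aggregated cells have more blue than red points.

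Among H3K4 writers, the SET and MYND domain gene Smyd2, whose enzyme also methylates p53 and other proteins that are not histones, moved most of all members on the log2(TPM+1) scale. By ratio of mean TPM the low gene Kdm4d ranged more, 21.2-fold between EpiLC and PGCLC_d3. Smyd2 stood at 46.8 and 52.6 TPM in ESC, 11.7 and 13.5 in EpiLC, 156 and 174 in PGCLC_d3 and 132 and 158 in PGCLC_d3ag3. EpiLC were the lowest and both PGCLC groups above ESC, with no overlap between EpiLC, ESC and PGCLC. The log2 change was -1.90 (SE 0.11) from ESC to EpiLC (adjusted p = 1.99e-07) and 3.61 (SE 0.11) from EpiLC to PGCLC_d3 (adjusted p = 2.43e-09), a 13.1-fold rise. Between the PGCLC groups it was -0.19 (SE 0.11), adjusted p = 0.139. That difference passed in 2 of 12 alternatives, without PGCLC_d3ag3 replicate 2 and with a replicate block (adjusted p as low as 0.0194), and turned sign in 1 (0.024). Smyd3, a related gene, had the same order of ESC, EpiLC and PGCLC_d3 at lower levels, 9.88 and 11.2 TPM in ESC, 6.26 and 6.08 in EpiLC, 28.3 and 28.5 in PGCLC_d3 and 16.4 and 18.4 in PGCLC_d3ag3. Its log2 changes were -0.68 (SE 0.10), 2.04 (SE 0.10) and, on aggregation, -0.68 (SE 0.10, adjusted p = 2.63e-04), so it lay highest in PGCLC_d3.

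The trithorax-type writers, large enzymes that work in COMPASS complexes, moved less. Kmt2a (MLL1) was at 4.37 and 4.83 TPM in ESC, 6.72 and 7.24 in EpiLC, 11.8 and 11.8 in PGCLC_d3 and 7.40 and 7.13 in PGCLC_d3ag3. It rose at both steps up to PGCLC_d3, by 0.51 and 0.69, and was 1.20 (SE 0.11) above ESC there, then fell by 0.63. Kmt2d, which places H3K4 monomethylation at enhancers, was at 21.2 and 22.3 TPM in ESC, 23.2 and 26.2 in EpiLC, 30.6 and 30.7 in PGCLC_d3 and 12.1 and 14.6 in PGCLC_d3ag3. Aggregated cells were the lowest of all groups, with a log2 change of -1.15 (SE 0.11) from PGCLC_d3 (adjusted p = 8.54e-06), a 2.30-fold fall.

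Setd1a and Setd1b encode alternative catalytic subunits of one complex and went opposite ways. Setd1a rose from 4.94 ± 0.407 TPM in ESC to 7.32 ± 0.770 in EpiLC and stood at 10.6 ± 0.0964 in PGCLC_d3 (SD, n = 2), which was 0.96 (SE 0.12) above ESC. Setd1b was at 6.42 and 7.30 TPM in ESC, 5.13 and 5.36 in EpiLC, 1.72 and 1.81 in PGCLC_d3 and 1.77 and 1.30 in PGCLC_d3ag3. It fell by 1.18 (SE 0.14) from EpiLC to PGCLC_d3 and differed from ESC there by -1.50 (SE 0.14), with both PGCLC groups under every ESC and EpiLC library. Of the 9 tested H3K4 writers, 4 rose and 2 fell in EpiLC (35.4% and 31.8% of all tested genes did), 7 rose and 2 fell in PGCLC_d3 against EpiLC (47.3% and 27.6%), and 6 fell on aggregation (44.8%) while 3 were not called. After both rescalings 4 of those 7 rises and 5 of those 6 falls were called, and the share of all called genes kept was not counted. Setd7, at 0.469 ± 0.150 TPM in ESC and 2.37 ± 0.0330 in PGCLC_d3, was low throughout. Kmt2b and Kmt2c lay between 6.55 and 23.5 TPM in every library. Within that range, Kmt2c rose into EpiLC (0.87, adjusted p = 1.03e-04) and Kmt2b fell on aggregation (-0.79, adjusted p = 1.16e-04). The relatives Kmt2e and Setd5, for which no firm methyltransferase activity is known, both rose in PGCLC_d3 against EpiLC (0.51 and 0.60) and fell on aggregation (-0.32 and -0.90); under quantile normalization the Kmt2e rise was not called and on aggregation its sign turned (0.012), a fall not called after median-of-ratios rescaling, without either PGCLC_d3 library or without PGCLC_d3ag3 replicate 2 either (adjusted p up to 0.926).

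H3K4 erasers were led by Kdm5b, a JmjC demethylase of di- and trimethylated H3K4. It was at 11.8 and 13.3 TPM in ESC, 63.3 and 70.9 in EpiLC, 83.7 and 83.8 in PGCLC_d3 and 68.3 and 74.1 in PGCLC_d3ag3. Both ESC libraries lay far below every other library, with a log2 change of 2.33 (SE 0.0845) into EpiLC (adjusted p = 9.13e-09) and 2.64 (SE 0.0845) between ESC and PGCLC_d3 (adjusted p = 2.60e-09). Differences among the 3 later groups were small: 0.32 and then -0.23, and neither was called after the rescalings. The first call was also lost without EpiLC replicate 1, and the second without either PGCLC_d3 library, without PGCLC_d3ag3 replicate 1 or with no filter (adjusted p up to 0.542 and 0.819 over all alternatives). Its paralogue Kdm5a was at 21.8 and 22.8 TPM in ESC, 24.97 and 25.7 in EpiLC, 36.6 and 36.5 in PGCLC_d3 and 23.2 and 22.7 in PGCLC_d3ag3, highest in PGCLC_d3.

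The flavin-dependent pair differed in pattern. Kdm1a (LSD1), a subunit of CoREST complexes, lay between 178 and 257 TPM over the 8 libraries, lowest in ESC and highest in EpiLC (log2 0.47, SE 0.0496, adjusted p = 1.72e-05). Kdm1b (LSD2), known in mouse oocytes for clearing H3K4 methylation ahead of maternal imprinting, was at 16.4 and 17.6 TPM in ESC, 10.4 and 11.8 in EpiLC, 28.8 and 29.4 in PGCLC_d3 and 54.6 and 44.4 in PGCLC_d3ag3. It was lowest in EpiLC and highest in aggregated cells, with changes of -0.57 (SE 0.11), 1.31 (SE 0.11) and 0.74 (SE 0.11) over the 3 steps (adjusted p = 0.00120, 2.79e-06 and 2.11e-04). Of the 4 H3K4 erasers, Kdm1b rose on aggregation, Kdm5a and Kdm5b fell and Kdm1a was not called (-0.11, adjusted p = 0.0653). Of all tested genes 25.7% rose and 44.8% fell at this step. The Kdm1a change turned sign in 1 of 12 alternatives (0.10) and was called in 2, with no filter on low values and after quantile normalization (adjusted p as low as 0.00662).

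**Figure D3:**
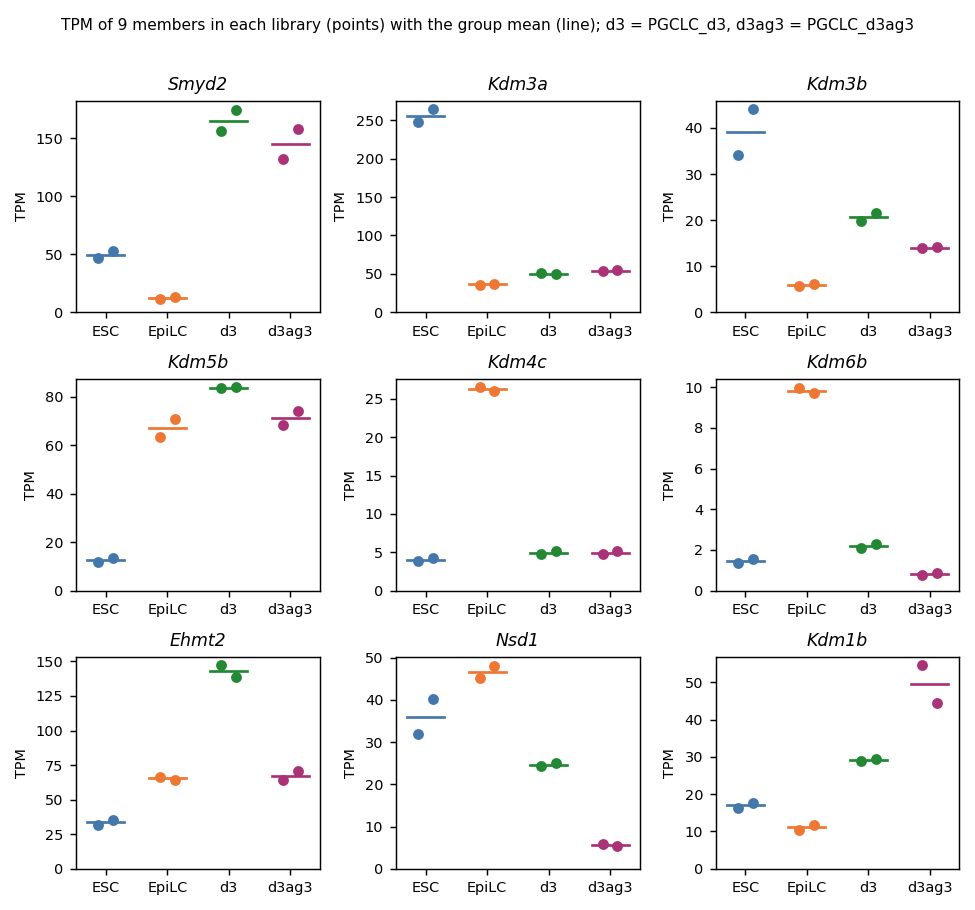
TPM (y axes, from 0) of 9 members in each library (points) by group (x axes), with the group mean (line). Kdm4c and Kdm6b peak in EpiLC, Kdm3a in ESC, Ehmt2 and Smyd2 in PGCLC_d3, and Nsd1 is lowest in PGCLC_d3ag3 at 5.94 and 5.48.

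Of the 5 H3K9 writers, 4 were higher in EpiLC than in ESC and 1 lower, where 35.4% of all tested genes were higher and 31.8% lower. Ehmt2 (G9a) and Ehmt1 (GLP) form the heterodimer that makes most H3K9 dimethylation. Ehmt2 was at 31.7 and 35.4 TPM in ESC, 66.6 and 64.1 in EpiLC, 147 and 138 in PGCLC_d3 and 63.9 and 70.4 in PGCLC_d3ag3. It rose at each of the first 2 steps, by 0.94 (SE 0.0773) and 1.12 (SE 0.0773), and changed on aggregation by -1.08 (SE 0.0773, adjusted p = 1.68e-06). Ehmt1 was at 54.8 and 59.9 TPM in ESC, 74.4 and 75.8 in EpiLC, 44.5 and 43.9 in PGCLC_d3 and 35.4 and 39.2 in PGCLC_d3ag3. It took the other direction from EpiLC to PGCLC_d3, a fall of 1.70-fold (log2 -0.75, SE 0.0747, adjusted p = 8.92e-06). Its further fall on aggregation (-0.24) was not called after either rescaling, without either PGCLC_d3 library or without PGCLC_d3ag3 replicate 1 (adjusted p up to 0.692).

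Setdb1 makes H3K9 trimethylation at retrotransposons with TRIM28. It was at 35.8 and 39.5 TPM in ESC, 75.8 and 75.8 in EpiLC, 79.2 and 75.1 in PGCLC_d3 and 41.3 and 44.9 in PGCLC_d3ag3. All EpiLC and PGCLC_d3 libraries lay above all ESC and aggregated libraries. The log2 change was 0.99 (SE 0.0737) into EpiLC, 0.02 (SE 0.0737) into PGCLC_d3 (adjusted p = 0.776) and -0.83 (SE 0.0737) on aggregation. The change into PGCLC_d3 turned sign in 3 of 12 alternatives and was called lower after median-of-ratios rescaling (-0.24, adjusted p = 0.00769). Setdb2, a related gene, was at 2.90 and 3.93 TPM in ESC, 1.75 and 2.26 in EpiLC, 6.35 and 5.75 in PGCLC_d3 and 7.07 and 7.33 in PGCLC_d3ag3. Low in EpiLC, it rose by 1.24 (SE 0.15) into PGCLC_d3. Suv39h2, which acts at pericentromeric repeats, had group means of 22.8, 35.97, 28.6 and 35.8 TPM in the order ESC, EpiLC, PGCLC_d3 and PGCLC_d3ag3.

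H3K9 erasers showed the largest fall out of ESC. Kdm3a, a JmjC demethylase of mono- and dimethylated H3K9, was at 247 and 264 TPM in ESC, 35.2 and 37.5 in EpiLC, 50.7 and 50.2 in PGCLC_d3 and 53.3 and 55.5 in PGCLC_d3ag3. Both ESC libraries lay far above every other library, and the fall into EpiLC was 7.03-fold (log2 -2.78, SE 0.0642, adjusted p = 5.47e-10). It rose only by 0.46 (SE 0.064) into PGCLC_d3 and was not called on aggregation (0.11, adjusted p = 0.160), except after both rescalings, which called it higher (up to 0.32, adjusted p as low as 8.60e-04). Kdm3b, its paralogue, was at 34.2 and 44.0 TPM in ESC, 5.66 and 6.23 in EpiLC, 19.8 and 21.5 in PGCLC_d3 and 13.9 and 14.1 in PGCLC_d3ag3. It fell 6.58-fold into EpiLC and recovered part of that in PGCLC_d3, with log2 changes of -2.52 (SE 0.12) and 1.64 (SE 0.12).

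The KDM4 enzymes act on trimethylated H3K9 and H3K36. Kdm4c was at 3.89 and 4.19 TPM in ESC, 26.5 and 26.0 in EpiLC, 4.76 and 5.13 in PGCLC_d3 and 4.79 and 5.12 in PGCLC_d3ag3. The 2 EpiLC libraries stood apart and the other 6 lay between 3.89 and 5.13 TPM, with a rise of 2.43 (SE 0.11, adjusted p = 4.63e-08) and then a change of -2.20 (SE 0.11, adjusted p = 8.13e-08). Both PGCLC_d3 libraries lay above both ESC libraries, by a difference that missed the threshold (0.24, adjusted p = 0.0767). It turned sign in 2 of 12 alternatives (down to -0.18) and was called with no filter on low values (adjusted p = 0.0292). Kdm4a was at 5.22 and 5.40 TPM in ESC, 4.65 and 5.08 in EpiLC, 6.77 and 6.63 in PGCLC_d3 and 5.52 and 4.13 in PGCLC_d3ag3 and Kdm4b between 10.3 and 17.2 TPM. Kdm4d was at most 0.103 TPM in ESC and EpiLC and 0.887 to 1.26 TPM in the PGCLC libraries. A near copy, Kdm4dl2, is in the same table and could share reads with it, so the level of Kdm4d is uncertain.

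Kdm7a and Kdm2a shared a downward course through the PGCLC groups. Kdm7a, whose enzyme removes H3K9 and H3K27 dimethylation, was at 10.4 and 13.9 TPM in ESC, 11.2 and 12.0 in EpiLC, 2.53 and 2.03 in PGCLC_d3 and 1.23 and 0.857 in PGCLC_d3ag3. The change from EpiLC to PGCLC_d3 was -1.95 (SE 0.17, adjusted p = 3.10e-06), and aggregated cells were lower again, with a change of -0.68 (adjusted p = 0.00454). Kdm2a, an H3K36 demethylase that binds unmethylated CpG islands, was at 27.5 and 30.6 TPM in ESC, 44.9 and 45.1 in EpiLC, 13.3 and 13.9 in PGCLC_d3 and 6.89 and 7.63 in PGCLC_d3ag3. It rose by 0.62 into EpiLC, then fell by 1.66 (SE 0.094) and by 0.82. Its paralogue Kdm2b, which also recruits a Polycomb PRC1 complex to CpG islands, was at 39.3 and 40.9 TPM in ESC, 39.4 and 37.4 in EpiLC, 35.5 and 37.7 in PGCLC_d3 and 66.3 and 84.9 in PGCLC_d3ag3. Between 35.5 and 40.9 TPM in the first 3 groups, it rose 2.06-fold on aggregation (log2 1.02, SE 0.11, adjusted p = 1.86e-05). Kdm8 rose from 17.8 ± 0.434 TPM in ESC to 36.3 ± 3.32 in EpiLC (SD, n = 2).

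PRC2 writes H3K27 methylation through EZH2 or the less active EZH1, with EED and SUZ12 as core subunits and JARID2 as a cofactor. Ezh2 alternated over the 4 groups, at 44.1 and 42.7 TPM in ESC, 89.9 and 91.4 in EpiLC, 42.8 and 44.4 in PGCLC_d3 and 93.2 and 84.7 in PGCLC_d3ag3. All EpiLC and aggregated libraries lay above all ESC and PGCLC_d3 libraries. The log2 change was 1.05 (SE 0.0667), then -1.04 (SE 0.0667), then 1.01 (SE 0.0667), with adjusted p = 4.80e-07, 3.96e-07 and 1.00e-06 in that order. Ezh1 was highest in ESC, at 121 and 128 TPM in ESC, 55.6 and 60.3 in EpiLC, 52.6 and 53.1 in PGCLC_d3 and 41.7 and 44.3 in PGCLC_d3ag3. It fell 2.16-fold into EpiLC (log2 -1.10, SE 0.0680) and changed later by -0.13 (adjusted p = 0.110) and -0.29. Both rescalings called the first of these lower (down to -0.39, adjusted p as low as 2.79e-04) and neither called the second. Eed was at 91.8 and 88.3 TPM in ESC, 108 and 111 in EpiLC, 119 and 120.0 in PGCLC_d3 and 166 and 150.5 in PGCLC_d3ag3, and rose on aggregation by 0.40 (SE 0.0614). Suz12 lay between 51.4 and 78.6 TPM and was not called on aggregation (-0.0110, adjusted p = 0.915), a change that turned sign in 4 of 12 alternatives and was called higher after median-of-ratios rescaling (0.20, adjusted p = 0.0384). Jarid2 fell at each step, from 209 ± 6.89 TPM in ESC through 168 ± 6.96 and 144 ± 0.142 to 106 ± 14.3 in aggregated cells (SD, n = 2), with changes of -0.31, -0.23 and -0.44. The first of these falls was not called without ESC replicate 2, without EpiLC replicate 1 or with no filter on low values (adjusted p up to 0.0612), nor was the next in the last case or when any 1 of its 4 libraries was left out (adjusted p up to 0.162).

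The H3K27 eraser gene Kdm6b (JMJD3), which is known as an inducible gene, peaked in EpiLC with Kdm4c, at 1.35 and 1.53 TPM in ESC, 9.96 and 9.70 in EpiLC, 2.07 and 2.29 in PGCLC_d3 and 0.763 and 0.853 in PGCLC_d3ag3. The rise into EpiLC was 6.84-fold (log2 2.15, SE 0.12), the change into PGCLC_d3 -1.77 (SE 0.12), and aggregated cells were lower still, with a change of -0.81 (adjusted p = 2.06e-04). PGCLC_d3 stood slightly above ESC (0.38, adjusted p = 0.0154), a call lost after both rescalings, with the sign turned in 1 (-0.055), and also lost without ESC replicate 1 or PGCLC_d3 replicate 2 (adjusted p up to 0.669).

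Upstream sequence is shown for the 2 members that peaked in EpiLC together, Kdm4c and Kdm6b, and for the members with the largest rise into PGCLC_d3, Smyd2, and the largest fall out of ESC, Kdm3a. Sequences are RefSeq promoter entries of build GRCr8, which is not the build of the expression table. Each is the 250 bases before the annotated start, 5′ to 3′ on the gene's strand, with capitals for GGGCGG or its reverse complement CCGCCC (the GC box) and for CACGTG, its own reverse complement (the E-box); these do not overlap each other. Kdm4c lies at chr5:93146787-93147036 (+), Kdm6b at chr10:54641015-54641264 (-), Smyd2 at chr13:103997775-103998024 (-) and Kdm3a, the first of 2 listed starts, at chr4:105233371-105233620 (-).
Kdm4c: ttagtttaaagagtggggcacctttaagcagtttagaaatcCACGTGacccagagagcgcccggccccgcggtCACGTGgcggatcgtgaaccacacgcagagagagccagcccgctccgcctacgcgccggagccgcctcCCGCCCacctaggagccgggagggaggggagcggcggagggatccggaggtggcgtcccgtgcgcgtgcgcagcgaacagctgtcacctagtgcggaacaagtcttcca
Kdm6b: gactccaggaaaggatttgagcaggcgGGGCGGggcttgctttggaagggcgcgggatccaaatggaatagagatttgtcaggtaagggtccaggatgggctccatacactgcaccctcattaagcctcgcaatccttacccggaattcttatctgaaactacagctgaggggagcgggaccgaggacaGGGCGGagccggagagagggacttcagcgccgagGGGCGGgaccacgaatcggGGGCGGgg
Smyd2: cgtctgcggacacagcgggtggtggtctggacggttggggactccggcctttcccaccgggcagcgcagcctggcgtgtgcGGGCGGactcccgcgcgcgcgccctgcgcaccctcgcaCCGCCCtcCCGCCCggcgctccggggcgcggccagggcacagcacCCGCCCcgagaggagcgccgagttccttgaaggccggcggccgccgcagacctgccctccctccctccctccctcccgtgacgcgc
Kdm3a: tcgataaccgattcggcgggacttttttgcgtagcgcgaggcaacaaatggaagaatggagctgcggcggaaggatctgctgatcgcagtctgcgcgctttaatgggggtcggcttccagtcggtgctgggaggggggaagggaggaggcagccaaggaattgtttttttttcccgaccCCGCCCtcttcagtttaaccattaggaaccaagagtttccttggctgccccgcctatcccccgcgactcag

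Kdm4c held 2 matches to CACGTG and 1 to the GC box, Kdm6b and Smyd2 each 4 to the GC box, and Kdm3a 1. Of the 52 members, 43 had an entry, and 32 of these (74.4%) held a GC box in the first listed window, against 59.1% of 10272 tested genes and 32.4% of 27457 genes with an entry. CACGTG was in 4 of the 43 (9.30%), against 8.32% of the tested genes and 5.79% of all genes. The median number of CpG dinucleotides per window was 23 for members, 16 for tested genes and 6 for all genes. Kdm4c and Kdm6b shared their EpiLC peak but not the CACGTG match. A match is a run of letters and not a shown binding site, and no factor was measured here.

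Of the 5 H3K36 writers, 4 fell on aggregation, where 44.8% of all tested genes fell. Under both rescalings 3 of these 4 were called lower. Of all tested genes 35.2% were lower after median-of-ratios rescaling and 35.3% after quantile normalization. Nsd1, which places H3K36 dimethylation between genes, was at 31.9 and 40.1 TPM in ESC, 45.2 and 48.0 in EpiLC, 24.3 and 25.01 in PGCLC_d3 and 5.94 and 5.48 in PGCLC_d3ag3. It rose by 0.37 into EpiLC, a call lost without ESC replicate 1, without EpiLC replicate 2 or with no filter on low values (adjusted p up to 0.103). It fell 1.89-fold into PGCLC_d3 and 4.31-fold on aggregation (log2 -0.89, SE 0.11 and -1.93, SE 0.11, adjusted p = 4.48e-05 and 4.07e-07), the largest fall of any member at the last step. Both aggregated libraries were at most 5.94 TPM and every other library at least 24.3. Nsd2, a paralogue with the same activity, was at 17.0 and 17.7 TPM in ESC, 33.5 and 36.7 in EpiLC, 39.3 and 42.0 in PGCLC_d3 and 37.8 and 29.7 in PGCLC_d3ag3. It rose 2.02-fold into EpiLC and was not called afterwards (0.21 and -0.27, adjusted p = 0.115 and 0.0508). The first of these turned sign in 2 of 12 alternatives and was called with only the 4 libraries compared (adjusted p = 0.0316). The second was called with a minimum of 5 TPM and without PGCLC_d3ag3 replicate 1 (adjusted p as low as 0.00369). Nsd3 (-0.72), Ash1l (-0.82) and Setd2 (-0.32) also fell on aggregation. The Setd2 call was lost in 8 of 12 alternatives, among them both rescalings and leaving out PGCLC_d3 replicate 1, PGCLC_d3 replicate 2 or PGCLC_d3ag3 replicate 2 (adjusted p up to 0.450).

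The single H3K79 writer gene, Dot1l, was at 11.3 and 11.4 TPM in ESC, 12.1 and 12.7 in EpiLC, 15.6 and 15.2 in PGCLC_d3 and 5.28 and 6.40 in PGCLC_d3ag3. PGCLC_d3 was highest and aggregated cells lowest, with a 2.64-fold fall on aggregation (log2 -1.27, SE 0.11, adjusted p = 6.85e-06); the call of a rise into PGCLC_d3 (0.30, adjusted p = 0.0366) was lost after both rescalings (-0.052 after quantile normalization) and without any 1 of the 4 libraries compared (adjusted p up to 0.719 over all of these). The H4K20 monomethylase gene Kmt5a fell from 84.3 ± 1.00 TPM in EpiLC to 41.0 ± 0.391 in PGCLC_d3 (SD, n = 2; log2 -1.02, SE 0.0591, adjusted p = 1.94e-07) and was at 38.7 ± 0.565 in aggregated cells. Kmt5c, which adds the further methyl groups, was at 14.5 and 14.8 TPM in ESC, 17.1 and 19.2 in EpiLC, 20.1 and 19.6 in PGCLC_d3 and 8.93 and 9.91 in PGCLC_d3ag3, and fell 2.11-fold on aggregation (log2 -1.002, SE 0.10). Its paralogue Kmt5b lay between 14.1 and 21.3 TPM in all libraries.

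Of the 6 members outside these roles, the actin histidine methyltransferase gene Setd3 was lowest in EpiLC (92.3 ± 0.412 TPM) and rose by 0.83 (SE 0.0501) into PGCLC_d3 (165 ± 0; SD, n = 2). Smyd4 was at 14.7 and 13.5 TPM in ESC, 22.2 and 21.2 in EpiLC, 17.4 and 19.7 in PGCLC_d3 and 22.4 and 24.1 in PGCLC_d3ag3. Its rise on aggregation (0.31, adjusted p = 0.0162) ended without PGCLC_d3 replicate 1 (adjusted p = 0.148) and without PGCLC_d3ag3 replicate 2 (adjusted p = 0.0699). Setd4 and Setd6 fell on aggregation by 0.65 and 0.83, and the lysyl hydroxylase gene Jmjd6 and Smyd5 varied between 88.6 and 135 TPM.

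Several related enzymes exchanged rank. The ratio of Ezh2 to Ezh1 TPM was 0.348 in ESC, 1.57 in EpiLC, 0.825 in PGCLC_d3 and 2.07 in PGCLC_d3ag3 (means of the 2 log2 ratios, as a ratio). Ehmt2 to Ehmt1 went from 0.585 and 0.870 in ESC and EpiLC to 3.23 and 1.80 in the PGCLC groups. Nsd2 to Nsd1 rose through the 4 groups in order, 0.485, 0.752, 1.65 and 5.87, and its libraries did not overlap between groups. Kdm2b to Kdm2a was 1.38, 0.852, 2.69 and 10.3, and Kdm5b to Kdm5a 0.564 in ESC and 2.29 to 3.10 elsewhere. Kdm4c to Kdm4a was 5.40 in EpiLC and 0.738 to 1.04 elsewhere. In 3 pairs the same partner stayed ahead in every library: Setdb1 over Setdb2 (5.98 to 38.2), Kdm3a over Kdm3b (Kdm3b to Kdm3a 0.152 to 0.409) and Kdm1a over Kdm1b (Kdm1b to Kdm1a 0.0442 to 0.245). These ratios were not tested.

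**Figure D4:**
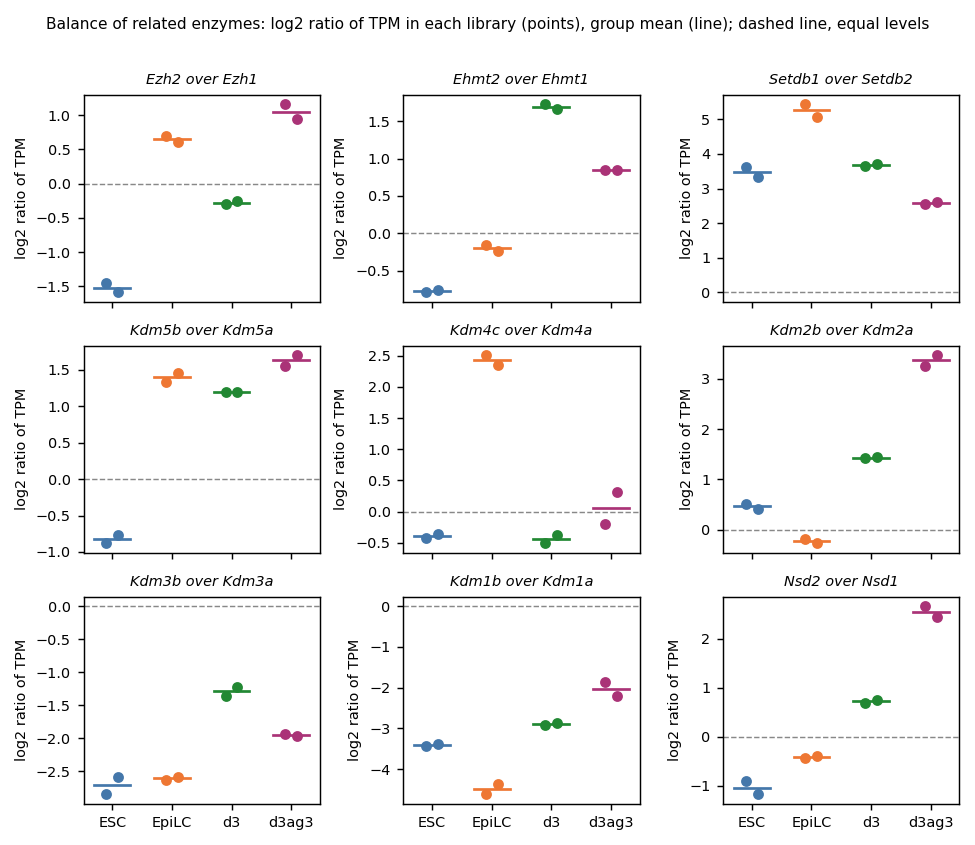
Log2 ratio of TPM of 9 pairs of related enzymes (y axes) in each library (points) by group (x axes), with group means (lines) and equal levels (dashed line). Ezh2 over Ezh1 lies below 0 in ESC and PGCLC_d3 and above it in EpiLC and PGCLC_d3ag3, and Nsd2 over Nsd1 climbs from -1.04 to 2.55.

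The partners of these enzymes were read as a list of 44 genes, all in the table, of which 40 were tested. In EpiLC 19 rose and 15 fell, where 35.4% and 31.8% of all tested genes did. In PGCLC_d3 against EpiLC 14 rose and 17 fell (47.3% and 27.6% of all tested genes), on aggregation 12 rose and 18 fell (25.7% and 44.8%), and in PGCLC_d3 against ESC 20 were higher and 15 lower (49.6% and 27.4%). Their median changes were 0.045, -0.036, -0.084 and 0.20 in that order, beside 0.038, 0.21, -0.18 and 0.25 for all tested genes. Each partner change named here was also called after both rescalings. Among H3K4 complex subunits, Wdr5, a shared core subunit, fell from 647 and 648 TPM in ESC to 199 and 201 in EpiLC (log2 -1.69, SE 0.0471), and Ash2l rose on aggregation from 258 and 256 to 484 and 509 (log2 0.95, SE 0.0529). Of PRC2 partners, Phf1 was higher in EpiLC than in ESC and PGCLC_d3, like Kdm4c and Kdm6b, with 1.89 and 2.50 TPM in ESC, 18.5 and 15.1 in EpiLC and 4.48 and 4.17 in PGCLC_d3. Aebp2 fell into PGCLC_d3 (log2 -2.06, SE 0.12) and Phf19 rose (1.76, SE 0.13).

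Of H3K9 partners, the corepressor gene Trim28, which works with SETDB1, was the most abundant gene of both lists in ESC and lower in PGCLC_d3, 2093 and 2063 against 562 and 560.4 TPM (log2 -1.89, SE 0.0627, adjusted p = 3.24e-09). Mphosph8, a HUSH complex subunit that binds methylated H3K9, rose on aggregation from 119 and 123 to 289.8 and 302 TPM (log2 1.28, SE 0.0555, adjusted p = 8.70e-08). Among CoREST subunits, Rcor2 rose into EpiLC (log2 2.38, SE 0.0955) and Hdac2 fell (-1.65, SE 0.0548), while PGCLC_d3 had more Phf21a (2.63, SE 0.13) and less Rcor1 (-1.84, SE 0.11) than ESC. Hr (hairless), a JmjC protein and nuclear receptor corepressor, was highest in PGCLC_d3, at 1.32 and 1.82 TPM in ESC, 0.330 and 0.228 in EpiLC, 21.4 and 22.8 in PGCLC_d3 and 1.33 and 1.41 in PGCLC_d3ag3. It rose by 4.18 (SE 0.14) and fell on aggregation by 3.29 (SE 0.14; adjusted p = 7.29e-08). Jmjd1c, a relative of Kdm3a, fell on aggregation by 1.27 (SE 0.11).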

How the data were processed

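RNA of 8 libraries, 2 in each of 4 groups, was measured by sequencing. The authors deposited 1 table of log2(TPM+1) values per gene and library; per the submitters' processing notes, bcl2fastq 2.20, cutadapt 1.1.6, HISAT2 2.1.0, featureCounts of Subread 1.6.5 and the build rn7 were named, without a role or order. TPM keeps no read totals, so the depth per library is unknown and no counting error can be given; each value rests on 2 libraries.

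Of the table, 11066 rows without a symbol were left out, and genes with at least 1 TPM in at least 2 libraries were kept, 13571 of 22228. The deposited log2 values were fitted with limma 3.58.1 (R 4.3.3), 1 mean per group over all 8 libraries with an intensity trend (4 residual degrees of freedom), and p-values were adjusted by Benjamini-Hochberg over all genes tested, with a threshold of 0.05. The script was tested on simulated data. TPM levels are 2 to the deposited value, minus 1. Values in each library are printed for up to 5 members with the largest rise and 5 with the largest fall per comparison among those called with at least 5 TPM in the higher group, and for pairs of related enzymes; of partners, up to 2 each way. The members and lists were chosen with earlier results of these data known. Alternatives were offsets of 0.1 and 5, no filter, a minimum of 5 TPM, median-of-ratios and quantile rescaling, a replicate block, leaving out each library, and fitting only the 4 libraries compared.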

Additional observations from a re-analysis of the deposited data

How the results depend on the processing

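For the up to 5 largest rises and 5 largest falls of members in each comparison, 40 in all, 478 of 480 results under the alternatives kept their direction and their side of the threshold, and the other 2, both of Smyd4 on aggregation, kept their direction. This does not cover the smaller changes, such as those of Setd2, Jarid2, Kmt2e and Dot1l, whose lost calls stand beside their values. Rescaling moved the counts of higher members by over 1.5 times in the comparisons that include PGCLC_d3. In EpiLC against ESC the count was 22 as deposited, 22 after median-of-ratios rescaling and 25 after quantile normalization. Of all tested genes 35.4%, 33.7% and 35.1% were higher there. After median-of-ratios rescaling 15 members were higher in PGCLC_d3 than in EpiLC, 12 in PGCLC_d3ag3 than in PGCLC_d3 and 15 in PGCLC_d3 than in ESC, and after quantile normalization 13, 12 and 18. Of all tested genes 36.3%, 35.2% and 37.7% were higher after the former and 37.9%, 34.4% and 40.4% after the latter. The counts of lower members in these comparisons were 21, 22 and 15 after the former and 19, 23 and 15 after the latter, against 14, 31 and 10 as deposited. Lower among all tested genes were 37.5%, 35.2% and 38% after the former and 36.3%, 35.3% and 35.7% after the latter. Both rescalings set the median gene of each library near the same level, and the cause was not tested further. Leaving out 1 library at a time leaves 1 library in a group, which is assumed to vary like the other groups. Counts of called members from such fits are therefore not given. Of 36 group values of paralogue balance, 10 moved by more than the replicate SD under quantile normalization, by at most 0.258, and none changed sign.

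Deviations of same-numbered libraries correlated at -0.037 to 0.066. This cannot show whether libraries of different groups shared cultures or runs, since the numbering need not follow them. With the replicate number as a block, 22 members were higher and 11 lower in EpiLC (35.6% and 32% of all tested genes). The counts were 24 and 14 in PGCLC_d3 against EpiLC (47.6% and 27.6%) and 7 and 31 on aggregation (25.7% and 45%). They were 30 and 10 in PGCLC_d3 against ESC (49.8% and 27.4%), and 49 members changed over all groups (96.3%). Without read totals, what depth limits is unknown; members near 1 TPM, such as Kdm4d and Setd7, are the least certain.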
